A study of Mus musculus with 8 samples.

Results

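Of the 22878 gene symbols in the deposited tables, the 8 genes described here are used to read dendritic cell, and above all plasmacytoid dendritic cell, potential in marrow progenitors. Their levels were followed through 4 sorted populations. They are Siglech, Irf8, Spib, Tcf4, Ly6d, Zbtb46, Itgax and Il12a. Il12a was selected on its RPKM levels in these same libraries, which were high in common lymphoid progenitors, so its values against those cells are a description with no test. The other 7 were chosen by name as dendritic cell genes, with results of these data known. Each gene is represented by the RefSeq transcript with the most reads, and all 8 passed the filter on low counts.

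The study sequenced polyadenylated RNA of marrow cells from C57BL/6 mice, an inbred strain, with 2 libraries in each of 4 groups. Its design asks what changes between common lymphoid progenitors and the helper-like innate lymphoid progenitor, and what sets PD-1+ and CCR6+ progenitors apart. PD-1+ cells (labelled as progenitors of innate lymphoid cells other than lymphoid tissue inducer cells) were lineage-negative, CD127+, integrin α4β7+ and Kit+, lacked Flt3 and ST2, and carried PD-1 without CCR6. CCR6+ cells (labelled as lymphoid tissue inducer progenitors) came from the same gate with CCR6 and without PD-1. ChILP, the common helper-like innate lymphoid progenitor, was the whole of that gate, so it also holds cells with neither marker. CLP, the common lymphoid progenitor, was lineage-negative, CD127+, Flt3+, Sca-1+ and Kit+ and lacked integrin α4β7. ChILP and CLP were enriched by depleting lineage-positive cells, and PD-1+ and CCR6+ cells by magnetic capture of integrin α4β7+ cells. A difference between those pairs of populations and the route of enrichment therefore cannot be told apart. The labels give no sex, age or number of mice and do not say whether 2 libraries of a group came from separate animals, so the p-values measure the spread between these libraries, which may be technical.

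Plasmacytoid dendritic cells make large amounts of type I interferon when their Toll-like receptors meet viral nucleic acid. They can arise from lymphoid as well as myeloid progenitors, and their identity is held by the E protein encoded by Tcf4 (also called E2-2), which binds E-box motifs in DNA. The inhibitor Id2, a gene that innate lymphoid progenitors use, blocks the DNA binding of E proteins. Conventional dendritic cells rely less on Tcf4 and are marked by the transcription factor gene Zbtb46.

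Libraries held 7685188 to 13997897 reads on genes. The genes of the sort followed the gates in part. Flt3 had at most 10.4 RPKM (reads scaled by transcript length and library total) in the 6 libraries of PD-1+, CCR6+ and ChILP cells, against 92.1 and 157 RPKM in CLP. Pdcd1, which encodes PD-1, had 181 and 36.3 RPKM in PD-1+ cells against 0 and 1.10 RPKM in CCR6+ cells. Ccr6 had 0 and 8.11 RPKM in PD-1+ cells against 84.2 and 23.6 RPKM in CCR6+ cells. The replicate 2 libraries of PD-1+ and CCR6+ cells did not group by label. They resembled each other (chi-square 17.5 per gene) more than either resembled its own replicate (76.3 in PD-1+ and 38.2 in CCR6+ cells). PD-1+ replicate 2 was also nearer to CCR6+ replicate 1 (38.35) than to its own replicate. CCR6+ replicate 2 was nearer to its own replicate than to PD-1+ replicate 1 (93.7). The members' differences are therefore also given without both replicate 2 libraries of PD-1+ and CCR6+ cells. For the plasmacytoid and conventional dendritic cell lists, the number of called genes that were still called without those libraries is given. For the monocyte and progenitor regulator lists it is given against ChILP only. Calls in the other lists and comparisons are not all followed in that way.

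Promoter sequence is shown for Siglech, the surface gene by which plasmacytoid dendritic cells are recognised, and for Il12a, of which RefSeq lists starts that the expression tables do not separate. The sequences are the 250 bases before RefSeq gene starts on build GRCm38.p6, plus strand, 5′ to 3′. The expression tables use mm9 per the submitters' processing notes, and no coordinate was converted. Capitals mark matches to the E-box CANNTG, the motif class bound by E proteins.
Il12a, start of NM_001159424, chr3:68690394-68690643: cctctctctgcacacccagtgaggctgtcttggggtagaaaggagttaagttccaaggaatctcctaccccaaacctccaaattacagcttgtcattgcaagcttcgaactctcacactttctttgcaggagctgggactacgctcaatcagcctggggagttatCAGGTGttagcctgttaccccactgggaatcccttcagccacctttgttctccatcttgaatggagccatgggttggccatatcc
Il12a, start of NM_008351, chr3:68691174-68691423: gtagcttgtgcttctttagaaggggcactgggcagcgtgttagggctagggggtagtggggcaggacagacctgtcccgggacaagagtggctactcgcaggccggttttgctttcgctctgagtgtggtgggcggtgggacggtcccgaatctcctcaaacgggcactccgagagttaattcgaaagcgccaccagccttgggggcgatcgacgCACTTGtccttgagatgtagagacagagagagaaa
Siglech, chr7:55767934-55768183: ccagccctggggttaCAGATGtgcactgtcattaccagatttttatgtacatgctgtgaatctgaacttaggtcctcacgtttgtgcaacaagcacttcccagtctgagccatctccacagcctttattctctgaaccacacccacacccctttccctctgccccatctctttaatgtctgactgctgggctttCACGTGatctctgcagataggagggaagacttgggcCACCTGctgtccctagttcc

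The upstream Il12a window holds 1 E-box, which begins 85 bases before the start and reads CAGGTG. The window of the transcript used for the levels, NM_008351, holds 1 E-box that begins 35 bases before the start. The Siglech window holds 3, which begin 235, 56 and 20 bases before the start, and the last is CACCTG, the reverse complement of CAGGTG. The general motif CANNTG, whose matches are the same on both strands, occurs in 66.2% of all 32851 promoter windows of the same length, and CAGGTG on either strand in 17.2%, so a match is a description of these letters and no more. RefSeq promoter windows were matched for 6 of the 8 genes. Tcf4 and Ly6d are named only.

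The levels in each library are shown per gene, on the RPKM scale of the authors' tables.

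**Figure D1:**
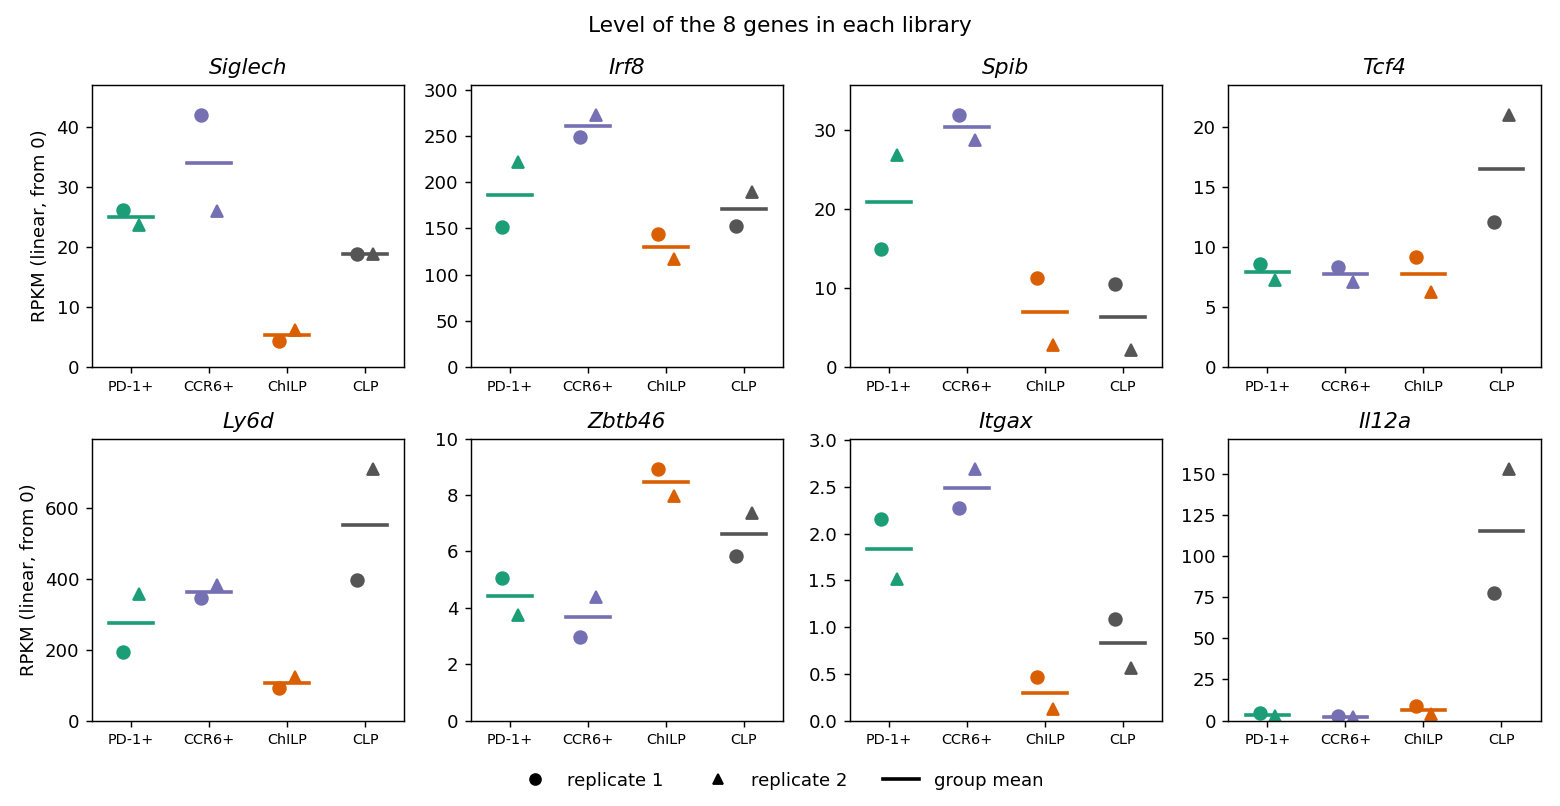
RPKM on a linear axis from 0 in each of 8 libraries, 1 panel per gene, with a circle for replicate 1, a triangle for replicate 2 and a bar for the group mean. Siglech is lowest in ChILP at 4.39 and 6.19 RPKM, Il12a is above 70 RPKM in CLP alone (77.9 and 153 RPKM), and both Zbtb46 libraries of ChILP lie above all others.

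Siglech, the sialic acid-binding lectin by which mouse plasmacytoid dendritic cells are recognised, was called higher in PD-1+ and CCR6+ cells than in ChILP. ChILP was the whole of their gate but was enriched by the other route, so population and route cannot be told apart in this comparison. Siglech (NM_178706) had 26.2 and 23.7 RPKM in PD-1+ cells, 42.0 and 26.1 RPKM in CCR6+ cells, 4.39 and 6.19 RPKM in ChILP, and 18.9 and 18.9 RPKM in CLP. The ChILP libraries were the lowest and overlapped with no other group, and PD-1+ and CCR6+ overlapped with each other. Siglech rose by a log2 fold change of 2.45 ± 0.31 (SE) in PD-1+ cells against ChILP (edgeR, adjusted p = 0.0196) and of 2.97 ± 0.32 in CCR6+ cells against ChILP (edgeR, adjusted p = 0.00949). Against CLP it rose by 1.18 ± 0.30 in CCR6+ cells (edgeR, adjusted p = 0.0436). In PD-1+ cells the difference from CLP was 0.67 ± 0.30 and was not called (edgeR, adjusted p = 0.219). Without both replicate 2 libraries, Siglech in CCR6+ cells differed by 3.34 from ChILP and by 1.51 from CLP (edgeR, adjusted p = 0.0238 and 0.0414), and in PD-1+ cells by 0.62 from CLP. In that fit the difference of PD-1+ cells from ChILP had the same size, 2.45, and an adjusted p of 0.0548 by edgeR, over a range of 4.07e-10 to 0.105 across 19 alternatives. The call of PD-1+ cells against ChILP was also lost without ChILP replicate 2 (0.0538) and in a fit of only the 4 libraries compared (0.105). That of CCR6+ cells against CLP was lost without CCR6+ replicate 1, CLP replicate 1 or CLP replicate 2 (edgeR, adjusted p = 0.223, 0.129 and 0.228). The difference of CCR6+ cells from ChILP was called in all 18 alternatives run, which include leaving out each library, DESeq2 and limma, at an adjusted p of at most 0.0414.

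Irf8 and Spib encode transcription factors that act with Tcf4 in the plasmacytoid programme. Irf8, which dendritic cells of several kinds need, had the highest mean RPKM of the 8 in ChILP and the second highest, after Ly6d, in PD-1+, CCR6+ and CLP cells. Irf8 (NM_008320) had 152 and 221 RPKM in PD-1+ cells, 249 and 273 RPKM in CCR6+ cells, 144 and 116 RPKM in ChILP, and 152 and 189 RPKM in CLP. CCR6+ cells were above all other libraries, ChILP libraries were below all others, and PD-1+ cells overlapped with CLP. Irf8 rose in CCR6+ cells by a log2 fold change of 1.28 ± 0.25 against ChILP (edgeR, adjusted p = 0.0238) and of 0.95 ± 0.25 against CLP (edgeR, adjusted p = 0.0482). In PD-1+ cells it differed from ChILP by 0.75 ± 0.25 (edgeR, adjusted p = 0.122) and from CLP by 0.42 ± 0.25 (edgeR, adjusted p = 0.350), and neither was called. Without both replicate 2 libraries, the values of Irf8 against CLP were -0.01 in PD-1+ cells and 0.91 in CCR6+ cells (edgeR, adjusted p = 0.0630), so that the call in CCR6+ cells was lost. Against ChILP they were 0.37 in PD-1+ and 1.28 in CCR6+ cells (edgeR, adjusted p = 0.400 and 0.0395). The call of CCR6+ cells against CLP was also lost without any 1 of the CCR6+, CLP or ChILP libraries, at differences of 0.864 to 1.038. The call of CCR6+ cells against ChILP was lost without CCR6+ replicate 1 or 2 (differences of 1.337 and 1.225). It was also lost without ChILP replicate 1 or 2 (differences of 1.437 and 1.141). In PD-1+ cells against ChILP Irf8 was called without PD-1+ replicate 1, at a difference of 1.103.

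Spib, an Ets family factor shared by plasmacytoid dendritic cells and B cells, differed widely between replicates in ChILP and in CLP. Spib (NM_019866) had 15.0 and 26.8 RPKM in PD-1+ cells, 31.9 and 28.7 RPKM in CCR6+ cells, 11.2 and 2.74 RPKM in ChILP, and 10.5 and 2.18 RPKM in CLP. All PD-1+ and CCR6+ libraries were above all ChILP and CLP libraries, and ChILP overlapped with CLP. The fitted log2 fold changes were 2.55 ± 0.86 in CCR6+ cells against CLP (edgeR, adjusted p = 0.0966) and 2.39 ± 0.85 against ChILP (edgeR, adjusted p = 0.118). Those of PD-1+ cells were 1.98 ± 0.84 against CLP and 1.82 ± 0.83 against ChILP (edgeR, adjusted p = 0.200 and 0.244). None passed the threshold in the edgeR fit of all libraries, and CCR6+ cells against CLP passed without CLP replicate 1 (edgeR, adjusted p = 0.0482, within 0.00529 to 0.324 over 18 alternatives). DESeq2 called Spib higher in CCR6+ cells against CLP and against ChILP and in PD-1+ cells against CLP (DESeq2, adjusted p = 0.00529, 0.00921 and 0.0499). Limma on log2(RPKM + 1) called it in CCR6+ cells against CLP and against ChILP (limma, adjusted p = 0.0299 and 0.0428). It did not call PD-1+ cells against CLP (limma, adjusted p = 0.0888). On log2(RPKM + 0.1) limma called CCR6+ cells against CLP (limma, adjusted p = 0.0463). With both replicate 2 libraries left out, the differences of Spib from CLP were 1.36 in PD-1+ and 2.66 in CCR6+ cells, and those from ChILP 1.24 and 2.54, none called. Between ChILP and CLP the fitted value of 0.16 ± 0.82 changed sign when 1 library was left out, being -0.603 without the second CLP library and -1.19 without the first ChILP library.

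Tcf4 itself did not follow Siglech. Tcf4 (NM_013685) had 8.62 and 7.23 RPKM in PD-1+ cells, 8.36 and 7.08 RPKM in CCR6+ cells, 9.21 and 6.22 RPKM in ChILP, and 12.1 and 21.0 RPKM in CLP. Both CLP libraries were above the other 6, which overlapped with each other. The differences from CLP were -0.78 ± 0.29 in PD-1+ cells, -0.75 ± 0.29 in CCR6+ cells and -1.03 ± 0.29 in ChILP, and none was called (edgeR, adjusted p = 0.147, 0.140 and 0.411). Tcf4 differed between PD-1+ and CCR6+ cells by -0.03 ± 0.29, with an interval of 2 SE to each side from -0.61 to 0.55. That sign turned to 0.03 with limma on log2(RPKM + 1). The differences of Tcf4 from CLP were -0.77 in PD-1+ and -0.61 in CCR6+ cells without both replicate 2 libraries.

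Ly6d, a surface protein that divides CLP into cells biased to the B lineage and others and that also marks lymphoid progenitors of plasmacytoid dendritic cells, had the highest mean RPKM of the 8 in PD-1+, CCR6+ and CLP cells. Ly6d (NM_010742) had 195 and 358 RPKM in PD-1+ cells, 346 and 384 RPKM in CCR6+ cells, 91.7 and 123 RPKM in ChILP, and 396 and 712 RPKM in CLP. On the RPKM scale CLP was highest and ChILP lowest with no overlap with any other group, and PD-1+ overlapped with CCR6+. The fitted differences from CLP were -0.69 ± 0.36 in PD-1+ and -0.25 ± 0.36 in CCR6+ cells, and neither was called (edgeR, adjusted p = 0.291 and 0.706). That of CCR6+ cells turned to 0.141 without CLP replicate 2. Ly6d rose by 2.04 ± 0.38 in CCR6+ cells against ChILP (edgeR, adjusted p = 0.0209) and by 1.60 ± 0.37 in PD-1+ cells against ChILP (edgeR, adjusted p = 0.0498). Without both replicate 2 libraries these were 2.04 (edgeR, adjusted p = 0.0379) and 1.01 (edgeR, adjusted p = 0.169). The call of CCR6+ cells was lost without any 1 of the CCR6+ or ChILP libraries (0.0627 to 0.0734). The call of PD-1+ cells was lost without any 1 library other than PD-1+ replicate 1 (0.0519 to 0.174), and its value was 1.01 without PD-1+ replicate 2 (edgeR, adjusted p = 0.137). In ChILP against CLP the difference was -2.29 ± 0.38 and was not called (edgeR, adjusted p = 0.0896, with 2.19e-07 to 0.575 over 18 alternatives). It was called without PD-1+ replicate 1 or without PD-1+ replicate 2, at 0.0269 and 0.0280 by edgeR.

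Zbtb46 and Itgax belong to conventional dendritic cells, Itgax as the integrin chain CD11c that plasmacytoid dendritic cells carry at a lower level. Zbtb46 (NM_028125) had 5.05 and 3.75 RPKM in PD-1+ cells, 2.98 and 4.37 RPKM in CCR6+ cells, 8.93 and 7.98 RPKM in ChILP, and 5.84 and 7.38 RPKM in CLP. Its order was the reverse of that of Siglech: ChILP was highest without overlap, and PD-1+ and CCR6+ cells, which overlapped with each other, were both below CLP. That place of ChILP holds for the transcript used. In the other listed transcript of Zbtb46, ChILP at 9.05 and 6.98 RPKM overlapped with CLP at 6.82 and 7.09 RPKM. The largest fitted difference was -0.92 ± 0.40 in CCR6+ cells against ChILP (edgeR, adjusted p = 0.183), and no comparison of Zbtb46 was called by edgeR. Itgax (NM_021334), which had the lowest mean RPKM of the 8 in PD-1+, ChILP and CLP cells, had 2.15 and 1.51 RPKM in PD-1+ cells, 2.28 and 2.69 RPKM in CCR6+ cells, 0.462 and 0.129 RPKM in ChILP, and 1.09 and 0.560 RPKM in CLP. The ChILP values rest on 34 and 8 reads, and no pair of groups overlapped. Itgax differed by 3.33 ± 0.89 in CCR6+ cells against ChILP and was not called (edgeR, adjusted p = 0.0551, with 0.000850 to 0.224 over 17 alternatives). That difference was 3.28 for Itgax and -1.16 for Zbtb46 without both replicate 2 libraries, and neither was called.

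Il12a encodes the p35 chain, which joins the p40 chain of Il12b to form interleukin 12 or the product of Ebi3 to form interleukin 35. Il12a (NM_008351) had 4.44 and 2.81 RPKM in PD-1+ cells, 2.57 and 2.21 RPKM in CCR6+ cells, 8.87 and 3.82 RPKM in ChILP, and 77.9 and 153 RPKM in CLP. CLP was the group for which the gene was picked, so its gap to the other 6 libraries is no finding. Expressed as fitted values with no test, that gap was -4.11 in ChILP, -4.72 in PD-1+ and -5.24 in CCR6+ cells. The other listed transcript, NM_001159424, shares almost all its reads with the one used and had 74.7 and 146 RPKM in CLP, so the tables do not separate the 2 starts shown above. Among groups that did not serve the choice, Il12a differed by 0.52 ± 0.49 in PD-1+ against CCR6+ cells (edgeR, adjusted p = 0.900), with an interval of 2 SE to each side from -0.45 to 1.5. The partner Il12b had no read except in 1 ChILP library, at 1.76 RPKM, and Il23a had none in any library. Ebi3 had 23.7 and 50.6 RPKM in PD-1+ cells, 51.4 and 46.2 RPKM in CCR6+ cells, 27.7 and 19.5 RPKM in ChILP, and 27.9 and 21.5 RPKM in CLP. Its levels were highest in both CCR6+ libraries and 1 PD-1+ library, not in CLP.

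**Figure D2:**
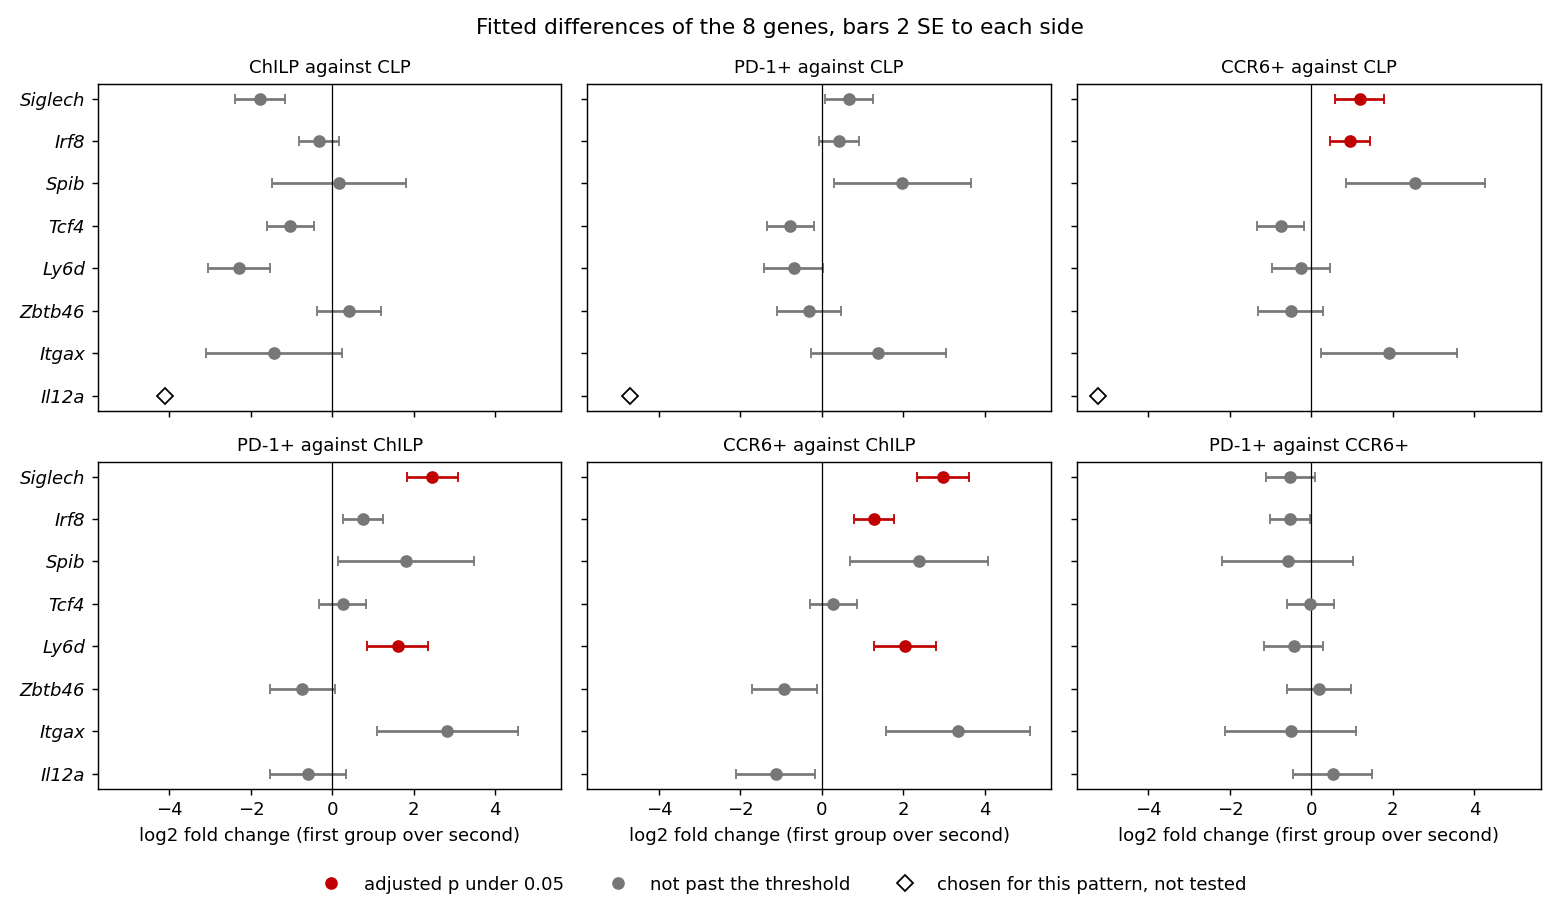
Fitted log2 fold changes of the 8 genes in 6 comparisons, the first named group over the second, with bars of 2 SE to each side, red where the adjusted p is under 0.05 and open diamonds where Il12a was not tested. The called values are Siglech and Irf8 in CCR6+ cells against CLP, Siglech and Ly6d in PD-1+ cells against ChILP, and those 2 with Irf8 in CCR6+ cells against ChILP.

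The comparison of ChILP with CLP called 0 of the 7 members tested, where 0.022% of the 13619 genes were called. Il12a, chosen for its level in CLP, is left out of the counts against CLP. Both ChILP libraries lay below both CLP libraries for 5 of the 7 members, against 18.6% of all genes. They lay above for 1, Zbtb46 in the transcript used, against 17.0%. The median log2 fold change of the 7 was -1.03, and that of all genes 0.05. The edgeR fit found 3 genes in all in this comparison, and 792 at an unadjusted p under 0.05. Siglech and Ly6d, at -1.79 ± 0.31 and -2.29 ± 0.38, had adjusted p of 0.0990 and 0.0896 in it. Both were called by DESeq2, and by edgeR with no filter on low counts (adjusted p = 0.0263 for each).

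PD-1+ against CCR6+ cells gave 0 of 8 members called, where 0.0% of all genes were, with 801 genes at an unadjusted p under 0.05. DESeq2 called 128 genes and none of the members. The libraries did not overlap for 4 members: Irf8, Spib and Itgax were lower in PD-1+ cells, where 14.2% of all genes were, and Il12a was higher, where 19.0% were. Irf8 was the member with the smallest relative error, at -0.53 ± 0.25 (edgeR, adjusted p = 0.850). Without both replicate 2 libraries its difference was -0.92 (edgeR, adjusted p = 0.198, within 0.156 to 1 over 18 alternatives), and that of Ly6d was -1.03 against -0.44 with all libraries. With 2 libraries a group these values do not show that PD-1+ and CCR6+ cells are alike in any of the 8.

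The comparisons of PD-1+ and of CCR6+ cells with CLP use the same CLP libraries, and their values stand side by side above. PD-1+ cells had 0 of 7 members called, where 7.31% of all genes were. CCR6+ cells had 2 of 7 called, both higher, where 11.4% of all genes were called and 6.59% were called higher. Libraries of CCR6+ cells lay apart from CLP for all 7 members counted, above for 4 and below for 3, against 19.8% and 45.7% of all genes. For PD-1+ cells they lay above for 3 and below for 3, against 18.6% and 38.7%. The median of all genes in CCR6+ cells against CLP was -0.09 in the edgeR fit and -0.36 with limma on log2(RPKM + 1). On that lower scale Siglech was at 0.78 and Irf8 at 0.61, both above the median of all genes and neither called (limma, adjusted p = 0.0824 and 0.0787).

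The comparisons with ChILP, added after values had been seen, share the ChILP libraries. Among PD-1+ cells 2 of 8 members were called, both higher, where 5.25% of all genes were called and 2.79% called higher. Among CCR6+ cells 3 of 8 were called, all higher, where 9.26% of all genes were called and 5.17% called higher. PD-1+ libraries lay above ChILP for 5 members and below for 1, against 17.7% and 35.6% of all genes. CCR6+ libraries lay above for 5 and below for 2, against 19.2% and 43.7%. Leaving out both replicate 2 libraries left 0 members called in PD-1+ cells and 3 in CCR6+ cells. The balance of all called genes differed between settings. With size factors of DESeq2 in the edgeR fit, the split of all called genes in CCR6+ cells against ChILP was 839 higher and 433 lower, against 704 and 557 with TMM, and with limma on log2(RPKM + 1) it was 839 higher and 1776 lower. The limma fit differs from edgeR in its test and its genes as well as its scale. With limma PD-1+ cells against ChILP had 539 higher and 1048 lower, against 380 and 335 with TMM. PD-1+ cells against CLP had 735 higher and 1412 lower, against 609 and 386, and CCR6+ cells against CLP 964 higher and 2150 lower, against 897 and 652. No member changed sign in these 4 comparisons under either setting.

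Other genes of the plasmacytoid programme, 15 of 16 listed and tested, were compared in the same way. Libraries of CCR6+ cells lay above ChILP for 9 of them and below for 3, beside 19.2% and 43.7% of all genes. The 3 below were Runx2, Bcl11a and Cbfa2t3. Their fitted log2 fold changes were -0.41 ± 0.377, -0.725 ± 0.407 and 0.123 ± 0.258, and none was called (edgeR, adjusted p = 0.540, 0.300 and 0.815). In CCR6+ cells against ChILP 5 rose, where 5.17% of all genes were called higher, and none fell, with a list median of 1.28 beside -0.12 for all genes. These were Bst2, Klk1, Cox6a2, Tlr7 and Irf7, at log2 fold changes of 0.86 ± 0.18, 3.97 ± 0.75, 1.91 ± 0.36, 4.33 ± 0.91 and 2.87 ± 0.28 (edgeR, adjusted p = 0.0285, 0.0219, 0.0219, 0.0285 and 0.00949). In PD-1+ cells against ChILP 4 of the 15 rose (Klk1, Cox6a2, Tlr7 and Irf7), where 2.79% of all genes were called higher, and none fell, with a median of 1.38. With both replicate 2 libraries left out, Bst2 and Irf7 were still called in CCR6+ cells (edgeR, adjusted p = 0.0452 and 0.0238) and 0 of the 4 in PD-1+ cells (edgeR, adjusted p = 0.0548 to 0.138). Irf7, the factor that amplifies type I interferon genes, had 96.0 and 146 RPKM in PD-1+ cells, 161 and 176 RPKM in CCR6+ cells, 31.8 and 24.1 RPKM in ChILP, and 39.1 and 45.4 RPKM in CLP. PD-1+ and CCR6+ cells were above ChILP and CLP without overlap.

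Cox6a2, a cytochrome oxidase subunit of muscle that plasmacytoid dendritic cells also express, went another way. Cox6a2 had 23.6 and 29.7 RPKM in PD-1+ cells, 27.96 and 29.9 RPKM in CCR6+ cells, 7.14 and 11.5 RPKM in ChILP, and 103 and 162 RPKM in CLP. It was the 1 gene of this list called in ChILP against CLP, where it fell by 3.76 ± 0.39 on the log2 scale (edgeR, adjusted p = 0.0495). That call was lost with size factors of DESeq2 in edgeR (0.0513) and without any 1 of the CCR6+, ChILP or CLP libraries (edgeR, adjusted p = 0.0529 to 0.494). It also fell in PD-1+ and CCR6+ cells against CLP, by 2.02 ± 0.36 and 1.85 ± 0.36 (edgeR, adjusted p = 0.0204 and 0.0193). Against CLP, Klk1, Irf7 and Pacsin1 rose in PD-1+ cells and those 3 with Bst2 in CCR6+ cells. Of the 13619 genes tested, 609 and 897 were called higher in these comparisons. Of the 4 and 5 genes called in these comparisons, Cox6a2 included, 1 in PD-1+ cells (Irf7) and 3 in CCR6+ cells (Klk1, Irf7 and Bst2) were still called without both replicate 2 libraries. Runx2, Bcl11a and Cbfa2t3 lay below CLP without overlap in PD-1+ and in CCR6+ cells, and none was called. Of these, Bcl11a differed most, by -1.645 ± 0.415 in PD-1+ and -1.249 ± 0.411 in CCR6+ cells (edgeR, adjusted p = 0.0538 and 0.0913). The list therefore held both directions, with medians of 1.16 in PD-1+ and 0.90 in CCR6+ cells against CLP beside -0.02 and -0.09 for all genes. No gene of the list was called between PD-1+ and CCR6+ cells.

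**Figure D3:**
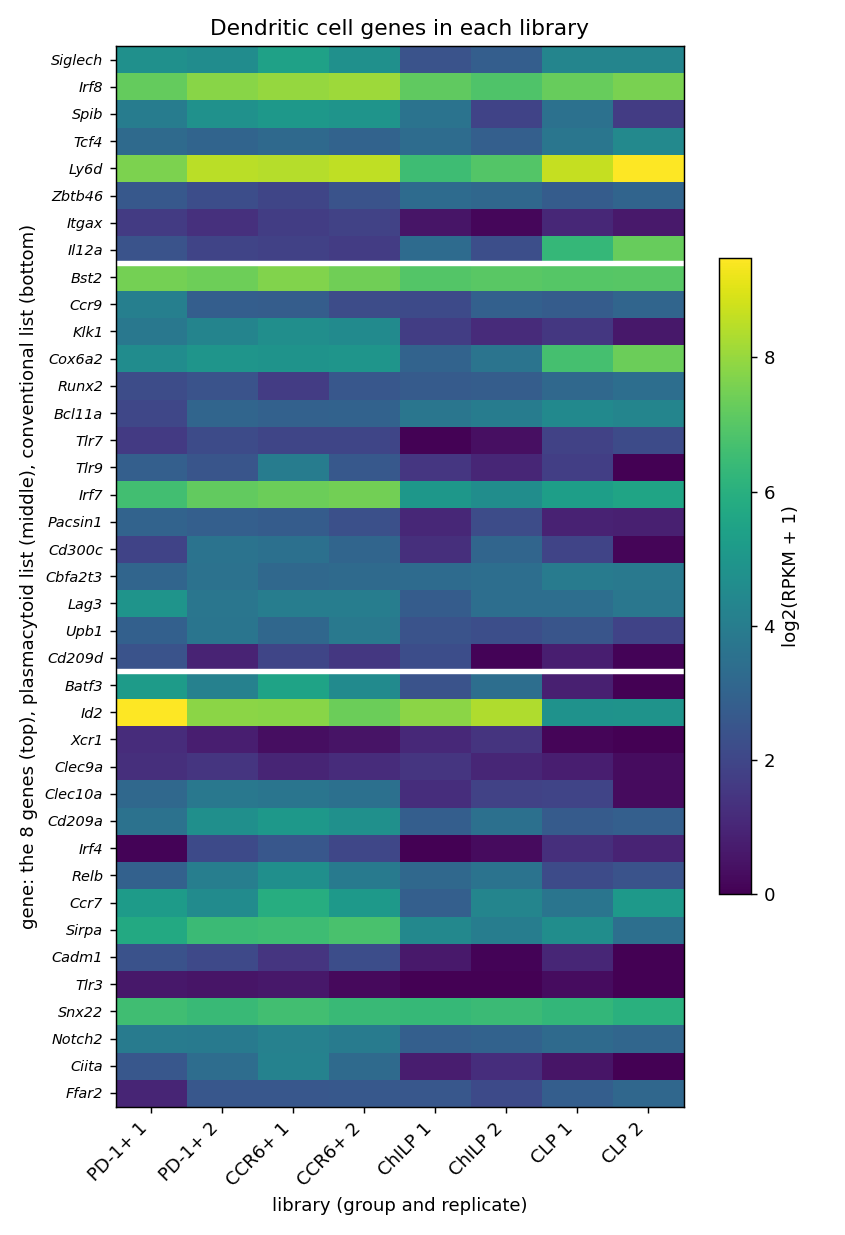
Log2(RPKM + 1) of the 8 genes (top), the plasmacytoid list (middle) and the conventional dendritic cell list (bottom) in each of 8 libraries. Siglech, Klk1 and Irf7 are darker in both ChILP libraries than in PD-1+ and CCR6+ libraries, while Il12a and Cox6a2 are brightest in CLP.

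Of the 16 genes of the conventional dendritic cell list, 5 rose in PD-1+ cells and 7 in CCR6+ cells against CLP, and none fell. Of the 13619 genes tested, 609 and 897 were called higher in these comparisons. Of these, 1 of the 5 (Id2) and 6 of the 7 were still called without both replicate 2 libraries. Id2, the inhibitor of E proteins, had 696 and 226 RPKM in PD-1+ cells, 221 and 164 RPKM in CCR6+ cells, 228 and 327 RPKM in ChILP, and 27.3 and 27.9 RPKM in CLP. It rose by 4.30 ± 0.50 in PD-1+ and 3.14 ± 0.47 in CCR6+ cells against CLP (edgeR, adjusted p = 0.00992 and 0.0102), while in ChILP the difference was 3.38 (edgeR, adjusted p = 0.0812). Against ChILP 2 of 16 rose in PD-1+ cells (Sirpa and Notch2) and 3 in CCR6+ cells (those 2 with Cd209a), where 2.79% and 5.17% of all genes were called higher. Of these, 0 of the 2 and 3 of the 3 were still called without both replicate 2 libraries. In the surface families, Ly6a, which encodes the gate marker Sca-1, rose against ChILP by 2.95 ± 0.45 in PD-1+ and by 3.71 ± 0.46 in CCR6+ cells (edgeR, adjusted p = 0.0233 and 0.0108), and without both replicate 2 libraries its values were 2.50 in PD-1+ and 3.96 in CCR6+ cells (edgeR, adjusted p = 0.0793 and 0.0265), so that the call in PD-1+ cells was lost.

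Markers of other blood cells differed between the same groups. Summed over 11 genes, monocyte and macrophage markers had 500 to 790 RPKM in PD-1+ cells, 670 to 902 RPKM in CCR6+ cells, 109 to 160 RPKM in ChILP and 71.8 to 108 RPKM in CLP. In PD-1+ and in CCR6+ cells 8 of the 11 rose against ChILP, and of those 8 genes 1 in PD-1+ cells and 6 in CCR6+ cells were still called without both replicate 2 libraries. Of all genes, 2.79% were called higher in PD-1+ cells and 5.17% in CCR6+ cells against ChILP. No gene of this marker list was at 0 in both libraries of PD-1+, CCR6+ or CLP cells, and Vcan was at 0 in both ChILP libraries. Erythroid markers (8 genes) summed to 28270 to 32800 RPKM in PD-1+ cells, 33300 to 40820 RPKM in CCR6+ cells, 1733 to 6936 RPKM in ChILP and 1473 to 5135 RPKM in CLP. Most of the PD-1+ and CCR6+ sums was the globin gene Hba-a1, without which the sum was 6328 to 7352 RPKM in PD-1+ cells, 7696 to 10220 RPKM in CCR6+ cells, 1167 to 2390 RPKM in ChILP and 925 to 2022 RPKM in CLP. Its genes did not all follow the sum: against ChILP Car1, a carbonic anhydrase gene of early erythroid cells, fell by 2.36 ± 0.24 in PD-1+ and by 1.99 ± 0.23 in CCR6+ cells (edgeR, adjusted p = 0.0171 and 0.0108), and Klf1 and Ermap overlapped. Markers of mature myeloid cells (11 genes) summed to 16130 to 32800 RPKM in PD-1+ cells, 21910 to 35440 RPKM in CCR6+ cells, 1454 to 6703 RPKM in ChILP and 1157 to 5145 RPKM in CLP. All 3 sums were higher in PD-1+ and CCR6+ cells, as Siglech, Spib and Itgax were, and their part in those differences was not tested. In bulk RNA, fewer cells of a type and less RNA per cell cannot be told apart.

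The B lineage genes, which Ly6d accompanies, did not share a single pattern. Their sum over 12 genes was 278 to 309 RPKM in PD-1+ cells, 305 to 342 RPKM in CCR6+ cells, 136 to 148 RPKM in ChILP and 1071 to 1780 RPKM in CLP. Most of the CLP sum was Dntt, the terminal transferase of early lymphocytes, without which the sum was 262.8 to 263.2 RPKM in PD-1+ cells, 294 to 337 RPKM in CCR6+ cells, 65.7 to 90.9 RPKM in ChILP and 253 to 331 RPKM in CLP, so that CLP overlapped with PD-1+ and CCR6+ cells. Cd79a, a chain of the B cell receptor complex, had 83.4 and 102 RPKM in PD-1+ cells, 129 and 120 RPKM in CCR6+ cells, 7.43 and 0.537 RPKM in ChILP, and 53.4 and 56.7 RPKM in CLP. It rose by 4.75 ± 0.88 in PD-1+ and by 5.22 ± 0.90 in CCR6+ cells against ChILP (edgeR, adjusted p = 0.0314 and 0.0173), and neither was called without both replicate 2 libraries (edgeR, adjusted p = 0.134 and 0.0795). Blnk, an adaptor of B cell receptor signalling, fell by 2.48 ± 0.59 in PD-1+ cells against CLP (edgeR, adjusted p = 0.0461). Against ChILP it rose by 2.90 ± 0.615 in CCR6+ cells (edgeR, adjusted p = 0.0289). Cd79b of the same list rose against ChILP by 2.04 ± 0.297 in PD-1+ and by 2.40 ± 0.301 in CCR6+ cells (edgeR, adjusted p = 0.0213 and 0.0108). Without both replicate 2 libraries the values in CCR6+ cells against ChILP were 2.70 for Blnk and 2.58 for Cd79b. That of Cd79b in PD-1+ cells was 1.96. Rag2, a recombinase subunit of early lymphocytes, had 0.385 and 0.290 RPKM in PD-1+ cells, 0 and 0.142 RPKM in CCR6+ cells, 2.57 and 0.783 RPKM in ChILP, and 18.4 and 29.7 RPKM in CLP. In CCR6+ cells against ChILP Rag2 differed by -4.11 ± 0.952 and Dntt by -2.76 ± 0.593 (edgeR, adjusted p = 0.0368 and 0.0304). Of the 12 genes 3 rose and 2 fell there, where 9.26% of all genes were called. In PD-1+ cells against ChILP 2 rose and none fell, where 5.25% were called. Against CLP 0 rose and 3 fell in PD-1+ cells, and 1 rose and 3 fell in CCR6+ cells. The shares of all genes called there were 7.31% and 11.4%. Rag2 was high in CLP alone, like Il12a, and Cd79a was lowest in ChILP, like Siglech. The part of B lineage cells in the levels of Ly6d and Spib was not tested.

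**Figure D4:**
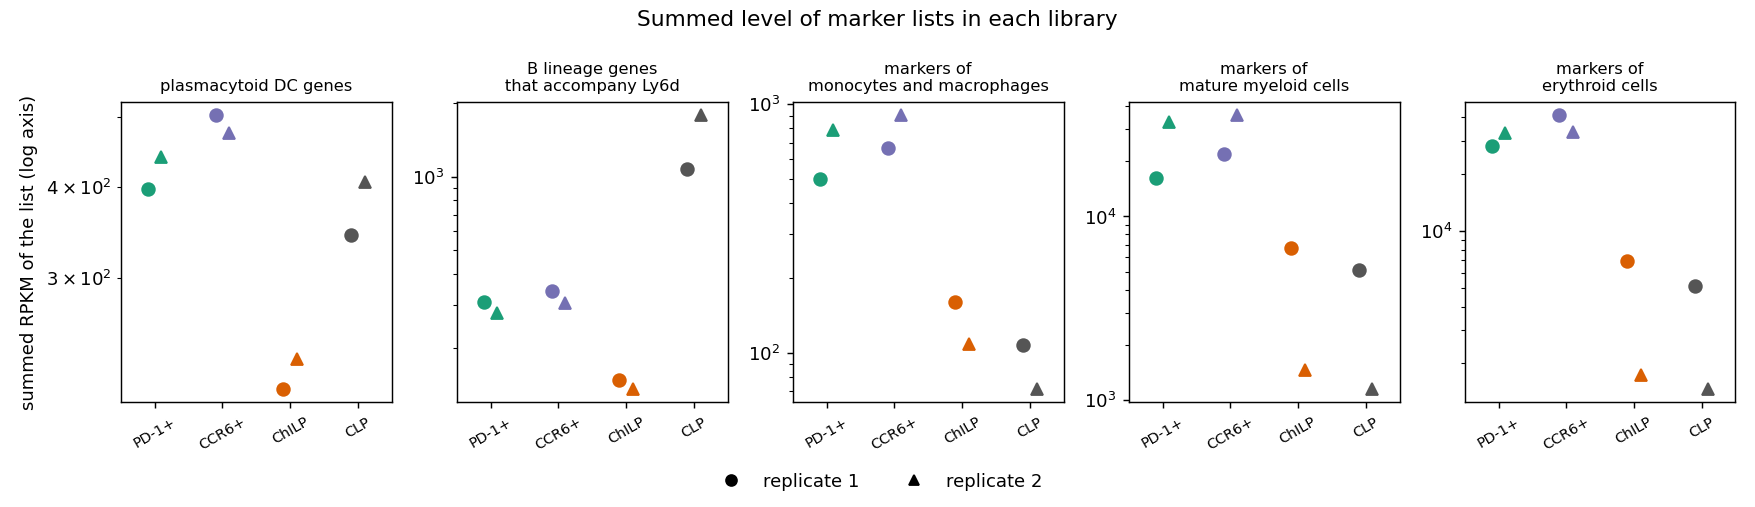
Summed RPKM of 5 marker lists on a log axis in each library, circles for replicate 1 and triangles for replicate 2. The monocyte and macrophage, mature myeloid and erythroid sums are higher in all PD-1+ and CCR6+ libraries than in all ChILP and CLP libraries, while the B lineage sum is highest in CLP, where most of it is Dntt. The plasmacytoid list summed to 398 to 440 RPKM in PD-1+ cells, 474 to 502 RPKM in CCR6+ cells, 211 to 231 RPKM in ChILP and 344 to 407 RPKM in CLP.

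Over the 8 libraries, whose depth and marker content differ as described and enter every correlation, the members fell into patterns that can be given as Pearson correlations of log2(RPKM + 1), with no test. Siglech and Itgax had r = 0.85, Spib and Itgax 0.85, and Siglech and Irf8 0.75. Il12a and Tcf4 had r = 0.92. Il12a was picked for its level in CLP, so a high r with other genes highest in CLP follows from that choice and is no finding. Siglech and Tcf4 had r = 0.09, and Siglech and Zbtb46 -0.88. Among 11409 genes with a mean of at least 1 RPKM, those most like Siglech were Mef2a, Ly6a and Gimap4 (r = 0.97 each). Gimap4 had 17.6 to 21.8 RPKM in PD-1+ cells, 22.5 to 29.2 RPKM in CCR6+ cells, 3.40 to 4.45 RPKM in ChILP and 12.1 to 12.7 RPKM in CLP. The genes most like Il12a, to which the same limit applies, were Rag2, Ccdc48 and 1700040L02Rik (r = 0.99 each). 1700040L02Rik was also among the 3 most like Tcf4, with Tspan13 and Pot1a. Tspan13 had 69.9 to 87.9 RPKM in PD-1+ cells, 74.2 to 76.1 RPKM in CCR6+ cells, 69.5 to 84.8 RPKM in ChILP and 166 to 265 RPKM in CLP.

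For the other members, Rel, BC013712 and Trem1 were most like Irf8 (r = 0.99, 0.98 and 0.96), and Fam46c, Rsad2 and Eif2ak1 most like Spib (r = 0.99 each). Rsad2, an interferon-induced antiviral gene, had 45.9 to 79.5 RPKM in PD-1+ cells, 79.7 to 96.0 RPKM in CCR6+ cells, 2.77 to 24.5 RPKM in ChILP and 2.94 to 14.1 RPKM in CLP. Tcf7l2, A630072M18Rik and Smad1 were most like Ly6d (r = 0.98, 0.97 and 0.97), and Mrpl35, Lyrm4 and Ndufa12 most like Zbtb46 (r = 0.99, 0.98 and 0.98). Itgax stayed under 5 RPKM in every library and was not searched.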

How the data were processed

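The 8 Smart-seq2 libraries, 2 per population, were analysed. CASAVA 1.8.4, Bowtie2 2.2.2 and build mm9 are named per the submitters' processing notes. The counter, strand setting and annotation release are not given in these sources, so reads of antisense or overlapping genes cannot be told apart. The authors deposited a whole-number count and an RPKM value for each of 29257 RefSeq transcripts per library. In the deposited tables RPKM equals the count over length and 1 library constant. Libraries were amplified without molecular identifiers, so depth bounds counting error only.

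The members and the 11 gene lists were chosen with earlier results of these data known. Genes named beyond the 8 were drawn from list members called over all genes, up to 3 further ones per direction, and the 3 genes most correlated with each member. Not every list member that was called is named. Others were chosen after their values were seen.

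The transcript with the largest mean count stood for each gene. The main test was the quasi-likelihood F test, robust and two-sided, of edgeR (version 4.0.16, R version 4.3.3). Libraries were scaled by TMM, genes were kept by filterByExpr at a minimum count of 10, and all 8 libraries entered 1 fit. It covered 13619 genes with 4 residual degrees of freedom and a common biological coefficient of variation of 0.526. P-values were Benjamini-Hochberg adjusted over all genes and called under 0.05. SE is the log2 fold change over the root of F. The procedure was tested on simulated data. Alternatives were DESeq2 1.42.0, its size factors in edgeR, limma 3.58.1 on log2(RPKM + 1) and log2(RPKM + 0.1), no filter, at least 5 RPKM in 2 libraries, the longest transcript, only the 4 libraries compared, a replicate block and leaving out each library. Comparisons with ChILP as the base, and the fit without both replicate 2 libraries of PD-1+ and CCR6+ cells, were added after seeing the data.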

Additional observations from a re-analysis of the deposited data

How the results depend on the processing

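Of 866 values of the 8 genes under other settings, 794 kept direction and, where tested, side of the threshold. The untested values of Il12a against CLP have no side to keep. A further 23 passed the threshold where they had not, 37 no longer passed it, 11 turned sign and 1 moved without a test. All 37 losses were of calls of the main fit. These calls were 2 in CCR6+ cells against CLP, 2 in PD-1+ cells against ChILP and 3 in CCR6+ cells against ChILP. Most of the 794 belong to results not called in the main fit, so that number does not measure how often calls held. The cause of a change was not tested.

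ChILP against CLP gave 3 genes, with 263 by DESeq2, 63 without a filter, 15 at 5 RPKM, 55 and 46 by limma (pseudocounts 1 and 0.1), 59 with only the 4 libraries, 43 without both replicate 2 libraries of PD-1+ and CCR6+ cells, 0 with DESeq2 size factors, and 0 to 51 leaving out each library. Members called were 2 by DESeq2, 2 without a filter and 1 by either limma fit or with the 4 libraries (0 to 1 leaving out each). PD-1+ against CCR6+ gave 128 genes by DESeq2, 2 by limma (pseudocount 1), 5 without both replicate 2 libraries and 0 to 36 leaving out each library, with 36 without PD-1+ replicate 2 alone.
PD-1+ against CLP gave 995 genes, with 2301 by DESeq2, 2147 and 1870 by limma, 208 with the 4 libraries, 414 without both replicate 2 libraries and 8 to 995 leaving out each (8 without CLP replicate 2); DESeq2 called 1 member. CCR6+ against CLP gave 1549, with 2750 by DESeq2, 3114 and 2797 by limma and 83 to 1930 leaving out each. By either limma fit its 1 member called was Spib, and Siglech and Irf8 were not called. How the calls of Siglech and Irf8 changed with libraries left out is given above.
PD-1+ against ChILP gave 715, with 1980 by DESeq2, 1587 and 1394 by limma, 0 with the 4 libraries, 31 without both replicate 2 libraries and 40 to 605 leaving out each. Members called were 4 by DESeq2, 0 with the 4 libraries, 0 without both replicate 2 libraries and 0 to 3 leaving out each. CCR6+ against ChILP gave 1261, with 2531 by DESeq2, 2615 and 2385 by limma, 725 without both replicate 2 libraries and 98 to 1658 leaving out each; members called were 5 by DESeq2, 5 by limma (pseudocount 1) and 1 to 3 leaving out each.

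Signs turned for Tcf4 in PD-1+ against CCR6+ cells (0.033 and 0.037 by limma; -0.155 to 0.105 leaving out each library), Irf8 in PD-1+ against CLP (-0.012 without both replicate 2 libraries), Spib in ChILP against CLP (-1.186 to 1.805 leaving out each), Zbtb46 in PD-1+ against CCR6+ (-0.052 to 0.481), Ly6d in CCR6+ against CLP (-0.562 to 0.141), and Tcf4 and Il12a in PD-1+ against ChILP (-0.002 to 0.557 and -1.086 to 0.121). None of these was called. Itgax has no value at 5 RPKM.

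The labels do not say whether libraries of the same replicate number belong together across groups. Deviations of same-numbered libraries correlated between -0.106 and 0.094, which cannot settle it. A replicate block gave 0 genes in ChILP against CLP, 632 in PD-1+ against CLP and 267 in PD-1+ against ChILP (674 and 1 member with numbers crossed), and it left 0 members called in CCR6+ against CLP (edgeR, adjusted p = 0.0695 for Siglech and 0.0673 for Irf8); the numbers do not pair the libraries, so nothing is read from these losses. It changed no other member call.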

Other observations

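Of 6 other Siglec genes tested, Cd33 rose in PD-1+ cells against ChILP, where 2.79% of all genes were called higher. In CCR6+ cells against ChILP, where 5.17% of all genes were called higher, Siglece, Cd22 and Cd33 rose. Their log2 fold changes were 2.68 ± 0.61, 4.12 ± 0.91 and 2.68 ± 0.60 (edgeR, adjusted p = 0.0350, 0.0317 and 0.0324). Without both replicate 2 libraries Cd33 was still called in CCR6+ cells (edgeR, adjusted p = 0.0441) and not in PD-1+ cells (0.0872), and Siglece and Cd22 were not called. Cd33, an inhibitory myeloid Siglec, had 5.75 and 16.0 RPKM in PD-1+ cells, 6.08 and 12.7 RPKM in CCR6+ cells, 1.58 and 1.97 RPKM in ChILP, and 15.9 and 15.0 RPKM in CLP. ChILP was lowest for Cd33, as for Siglech, and PD-1+ cells overlapped with CCR6+ cells and with CLP. Of 15 dendritic progenitor regulators and receptors tested, Csf1r, Cx3cr1, Klf4 and Nfil3 rose in PD-1+ cells against ChILP, and those 4 with Csf2ra in CCR6+ cells. The shares of all genes called higher were the same 2.79% and 5.17%. With both replicate 2 libraries left out, 0 of those 4 in PD-1+ cells and 3 of the 5 in CCR6+ cells were still called. Csf1r, the receptor for macrophage colony-stimulating factor, had 78.8 and 113 RPKM in PD-1+ cells, 119 and 130 RPKM in CCR6+ cells, 26.4 and 24.8 RPKM in ChILP, and 30.9 and 24.9 RPKM in CLP, and it is also 1 of the monocyte and macrophage markers. In ChILP against CLP only Flt3 of these 15 was called, at -3.94 ± 0.39 (edgeR, adjusted p = 0.0495), and Flt3 was part of the sort. That call was lost with size factors of DESeq2 in edgeR (0.0513) and without either CCR6+ or either CLP library or ChILP replicate 2 (edgeR, adjusted p = 0.0592 to 0.438).

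The other E protein genes are Tcf3 and Tcf12. Tcf3 had 61.1 and 53.3 RPKM in PD-1+ cells, 70.1 and 53.0 RPKM in CCR6+ cells, 96.4 and 114 RPKM in ChILP, and 107 and 125 RPKM in CLP. ChILP and CLP overlapped for Tcf3 and lay above PD-1+ and CCR6+ cells. Against CLP Tcf3 differed by -0.75 ± 0.20 in PD-1+ cells, -0.58 ± 0.20 in CCR6+ cells and -0.08 ± 0.20 in ChILP. Tcf12 had 7.42 and 4.25 RPKM in PD-1+ cells, 5.29 and 4.47 RPKM in CCR6+ cells, 9.97 and 10.6 RPKM in ChILP, and 6.53 and 11.2 RPKM in CLP. Neither gene was called in any of the 6 comparisons by edgeR.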
